A study of Mus musculus with 4 samples.

Results

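The genes described here are 10 regulators of pluripotency in mouse embryonic stem cells (mESCs). They were taken from the deposited table by gene symbol, from a list drawn up with earlier results of these data known, and are 10 of the 55401 genes in it. The core factors Pou5f1, Sox2 and Sall4 act in every pluripotent state, and the other 7 genes, Otx2, Fgf5, Pou3f1, Foxd3, Zic2, Sox3 and Lin28b, are known from the formative or primed state. RNA-seq of E14 cells, an established mESC line, compared unmodified cells (WT, 2 libraries) with cells in which CRISPR/Cas9 had disrupted Haspin (Haspin-KO, 2 libraries), the kinase that phosphorylates histone H3 at threonine 3 in mitosis. By the study's methods, all cells grew in serum with LIF, the MEK inhibitor PD0325901 and the GSK3 inhibitor CHIR99021, on mouse fibroblast feeders for passage or on gelatin for assays. The Haspin-KO lines came from single clones that had survived puromycin and lacked the Haspin mark on staining. Which Haspin-KO line gave which library is not in the labels, nor whether the libraries of a group came from separate cultures. The p-values thus rest only on the spread between these libraries. In the main fit, each gene's variance was also drawn toward a trend over all genes (7.42 prior against 2 residual degrees of freedom).

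Pluripotent cells of the early mouse embryo pass from a naive state, before implantation, through a formative state to a primed state, from which the germ layers arise. Oct4, the protein of Pou5f1, and Sox2 bind many enhancers side by side in all of these states, while Otx2 and Pou3f1 (Oct6) direct Oct4 to other enhancers as naive cells exit. Fgf5 is a classical marker of the epiblast after implantation, and inhibition of MEK and GSK3 holds mESCs in the naive state.

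Library totals were 21834847 and 17452307 counts in WT and 14207828 and 14436750 counts in Haspin-KO, so that WT was on average 1.37 times as deep. A count of 3, taken as the smallest abundance a library could show, equals 0.137 and 0.172 CPM (counts scaled to a common library size of 1000000) in WT and 0.211 and 0.208 CPM in Haspin-KO. Haspin (ENSMUSG00000050107) had 875 and 619 counts in the WT libraries and 149 and 209 counts in the Haspin-KO libraries, which is the direction the labels give. Its log2 fold change was -1.60 (SE 0.16, adjusted p = 0.00154, the quasi-likelihood test of edgeR, Benjamini-Hochberg adjusted over all genes tested, as below throughout). Of 14 feeder fibroblast markers, 6, Lox and Postn among them, had no count in either Haspin-KO library. Of these, Lum had no count in WT either. Dcn (4 and 2 counts) and Twist2 (1 and 3 counts) were near the 3-count floor in WT. The summed level of the list was 189.6 and 143.2 CPM in WT against 29.3 and 30.5 CPM in Haspin-KO. Markers of the 2-cell-like state, a rare transient state of mESC cultures, had a summed level of 85.05 and 79.6 CPM in WT, below the 216.2 and 165.5 CPM of Haspin-KO. At an adjusted p under 0.05, which 2.5% of all genes tested passed, 7 of the 9 feeder markers tested fell. Of the 2-cell-like markers 13 were tested and 6 rose at that threshold. What part either has in the values of the 10 genes was not tested, and in bulk RNA fewer cells of a type and less RNA per cell cannot be told apart.

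For 4 of the 10 genes the study also lists quantitative PCR primers. They are shown because they place its second readout on the transcripts that the RNA-seq counted. Among GENCODE M21 transcripts (mm10, GRCm38) each primer matched its own gene at 1 position and no transcript of another gene. The genome outside annotated transcripts was not searched. Capitals mark the start codon in the forward primer of Otx2 and the 10 bases of exon 3 in the reverse primer of Fgf5, which crosses the junction from exon 2 and so matches spliced RNA.
Pou5f1 forward: tcactcacatcgccaatcagct
Pou5f1 reverse: gaaaggtgtccctgtagcctca
Sox2 forward: cgtggttacctcttcctcccac
Sox2 reverse: cggggaggtacatgctgatcat
Fgf5 forward: aatatttgctgtgtctcagg
Fgf5 reverse: TAAATTTGGCacttgcatgg
Otx2 forward: cATGatgtcttatctaaagcaaccg
Otx2 reverse: gtcgagctgtgccctagta
The Pou5f1 pair lies in coding exons 4 and 5 (chr17:35510102-35510386, plus strand) and spans 137 bases of transcript. Its forward primer matched 6 annotated transcripts and its reverse primer 1 of them. The Sox2 pair spans 80 bases of the single coding exon (chr3:34651180-34651259, plus strand), so that it does not separate RNA from genomic DNA by splicing. The Otx2 pair lies in exons 4 and 5 (chr14:48661395-48662541, minus strand), spans 154 bases and starts at the first codon. The Fgf5 pair lies in exons 2 and 3 (chr5:98261953-98275220, plus strand) and spans 104 bases.

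No gene of the 10 passed an adjusted p of 0.05 between Haspin-KO and WT. The 3 core factors differed by small amounts, between -0.14 and 0.25 on the log2 scale. Among the formative and primed genes Fgf5 had the largest fitted difference, upward, at very low counts, Sox3 was higher and Otx2 lower in both Haspin-KO libraries, and Foxd3, Zic2 and Lin28b overlapped between the groups. All 10 genes had enough counts to be tested by edgeR, 9 of them through both groups and Fgf5 through Haspin-KO alone. With edgeR 0 of the 10 were called at an adjusted p under 0.05, where 2.5% of the 15580 genes tested were called, and 0 were DEGs (adjusted p under 0.05 and a fold over 2), where 0.828% were. At an unadjusted p under 0.05, 3 were higher in Haspin-KO (Sall4, Fgf5 and Sox3), beside 10.4% of all genes tested. Fgf5 could enter the test only by being high in Haspin-KO, so that its place in this count is no support. Lower was 1 gene (Otx2), beside 10.4%. DESeq2 called 0 of the 9 genes to which it gave an adjusted p, beside 3.63% of genes, and limma on log2(FPKM + 0.1) called 0 of 9, beside 0% of genes. Both Haspin-KO libraries lay above both WT libraries for 4 of the 10 genes (25.3% of genes tested) and below them for 2 (26.9%). Fgf5 is among the 4, with the same limit. Groups of 2 libraries that did not overlap were thus common among all genes. The median log2 fold change was 0.08 for the core factors and 0.25 for the formative and primed genes, beside -0.0039 for all genes tested. In lists of 3 and 7 genes these medians are the values of single genes, Sox2 and Foxd3, and the second list includes Fgf5. The median of the core factors was -0.10 without WT replicate 1, so that its sign rested on a single library. That of the formative and primed genes was 0.04 without WT replicate 1. It was -0.10 without Haspin-KO replicate 2, where Fgf5 could not be fitted, so that this median covers fewer genes.

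**Figure D1:**
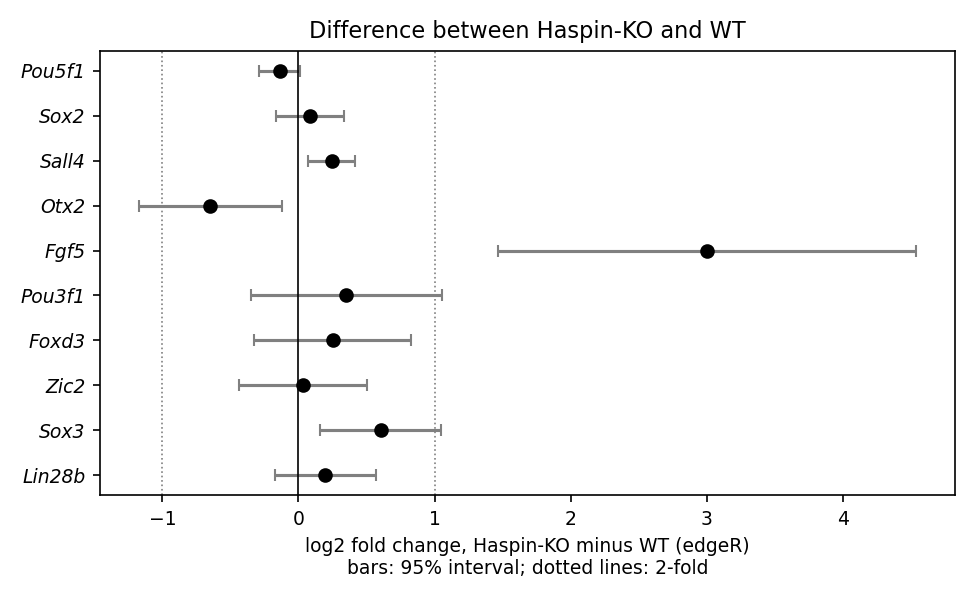
Log2 fold change of each of the 10 genes between Haspin-KO and WT (edgeR, 2 libraries a group), with points for the fitted value and bars for its 95% interval. Fgf5 stands apart at 3.001 with the widest interval, while Pou5f1, Sox2 and Sall4 sit within 0.25 of 0.

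The levels of the 10 genes, compared as deposited FPKM (fragments per kilobase of exon, scaled to the library total), ran from 0.02 for Fgf5 to 477 for Pou5f1. Pou5f1 was highest, with a mean of 466 ± 15.97 FPKM in WT and 424.7 ± 7.06 FPKM in Haspin-KO (SD, n = 2), above 99.6% of the genes tested in WT. Sox2 followed with 168.4 ± 30.2 FPKM in WT and 179.1 ± 6.59 FPKM in Haspin-KO, and Sall4 with 40.6 ± 2.60 and 48.3 ± 0.955 FPKM. Foxd3 and Zic2 came next, and their libraries overlapped in both groups, so that their order was not resolved. Sox3, Lin28b and Otx2 lay between 0.9 and 3.48 FPKM in every library, with Lin28b and Otx2 overlapping in WT and apart in Haspin-KO. Pou3f1 lay between 0.4 and 0.69 FPKM, and Fgf5, the lowest of the 10, between 0.02 and 0.28 FPKM. The order of the mean levels was the same in WT and in Haspin-KO.

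**Figure D2:**
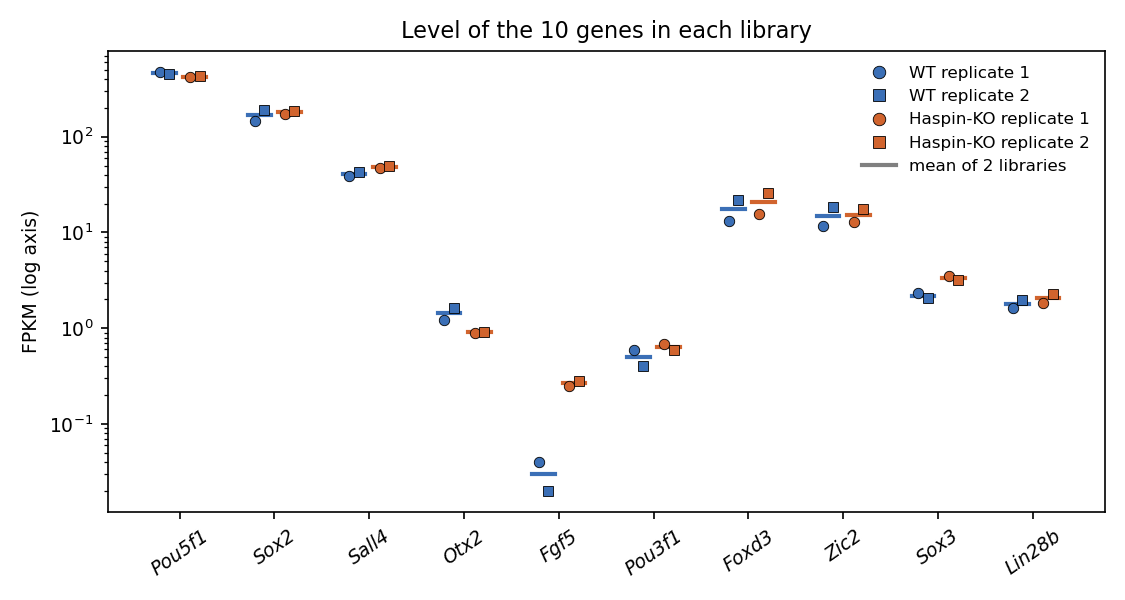
FPKM of each of the 10 genes in each of the 4 libraries on a log axis, with circles for replicate 1, squares for replicate 2 and short lines for the mean of the 2 libraries of a group. The 3 core factors lie above 38 FPKM in every library, and Fgf5 is the only gene whose groups are separated by several fold.

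Pou5f1 (ENSMUSG00000024406, chr17:35506018-35510772, plus strand), which encodes Oct4, the POU-domain factor without which the pluripotent inner cell mass does not form, had 23430 and 17841 counts in WT and 13406 and 13946 counts in Haspin-KO. After TMM scaling of the library sizes (also used for all CPM below) these were 1072 and 1029 CPM in WT and 933 and 977 CPM in Haspin-KO. The Haspin-KO libraries were the lower ones, by little, and the groups did not overlap. The fitted log2 fold change was -0.14 (SE 0.07, 95% interval -0.29 to 0.01, adjusted p = 0.274), and it was 0.02 with offsets for GC content and gene length. The interval does not reach a fall to 0.8 of WT.

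Sox2 (ENSMUSG00000074637, chr3:34650405-34652461, plus strand), the SRY-box partner of Oct4, had 6605 and 6814 counts in WT and 5098 and 5457 counts in Haspin-KO, or 302 and 393 CPM against 355 and 382 CPM. WT replicate 1 was the lowest library, and both Haspin-KO libraries lay inside the range of WT. Its log2 fold change was 0.08 (SE 0.11, 95% interval -0.17 to 0.34, adjusted p = 0.71). Without WT replicate 1 the value turned to -0.10 and without WT replicate 2 it was 0.29, neither called. The level of Pou5f1 over that of Sox2 within a library, in FPKM, was 3.25 and 2.4 in WT and 2.41 and 2.34 in Haspin-KO, so that WT replicate 1 stood apart from the other 3 libraries in this ratio too.

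Sall4 (ENSMUSG00000027547, chr2:168748332-168767943, minus strand), a zinc-finger factor that binds Oct4 and is needed for the growth of mESCs, had 4690 and 4103 counts in WT and 3745 and 3913 counts in Haspin-KO, or 215 and 237 CPM against 261 and 274 CPM. Both Haspin-KO libraries were above both WT libraries. The difference was a log2 fold change of 0.25 (SE 0.08, 95% interval 0.07 to 0.42, adjusted p = 0.118), and it did not pass the test over all genes. A fold above 2 lay outside the interval.

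Otx2 (ENSMUSG00000021848, chr14:48657677-48673819, minus strand), the homeobox factor that drives exit from the naive state, had 112 and 121 counts in WT and 54 and 56 counts in Haspin-KO. In CPM these were 5.13 and 6.98 against 3.76 and 3.92. Otx2 was lower in both Haspin-KO libraries, which were close to each other, than in either WT library, and it was the only formative or primed gene of the 10 with a fitted value below 0. Its log2 fold change was -0.65 (SE 0.23, 95% interval -1.17 to -0.12, adjusted p = 0.163).

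Fgf5 (ENSMUSG00000029337, chr5:98254184-98277030, plus strand), the secreted growth factor of the epiblast after implantation, had 2 and 1 counts in WT and 9 and 10 counts in Haspin-KO. Both WT libraries were under the 3-count floor and both Haspin-KO libraries above it. Summed over libraries, 19 counts in Haspin-KO against 3 in WT gave a ratio of 8.69 per library total, with a 95% counting interval of 2.56 to 45.8 (exact Clopper-Pearson) that covers counting error only. The fitted log2 fold change was 3.001 (SE 0.68, adjusted p = 0.0535). At such counts this value, its SE and its interval depend on the prior count. Fgf5 entered the test only because Haspin-KO reached the filter's 0.627 CPM, at 0.633 and 0.693 CPM per library total against 0.0916 and 0.0573 CPM in WT, and so had to differ to be tested. DESeq2 gave it no adjusted p, and without either Haspin-KO library it no longer passed the filter. In FPKM, Fgf5 reached 0.25 and 0.28 in Haspin-KO, under the level of every other gene of the 10 there and above 5.93% of the genes tested.

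Pou3f1 (ENSMUSG00000090125, chr4:124656807-124660655, plus strand), which encodes Oct6, had 50 and 27 counts in WT and 38 and 33 counts in Haspin-KO, or 2.29 and 1.56 CPM against 2.65 and 2.31 CPM. The Haspin-KO libraries were above the WT libraries by a margin smaller than the gap between the WT libraries. In FPKM, which is not TMM-scaled, WT replicate 1 and Haspin-KO replicate 2 were equal at 0.59. The log2 fold change was 0.35 (SE 0.31, 95% interval -0.35 to 1.05, adjusted p = 0.559).

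Foxd3 (ENSMUSG00000067261, chr4:99656299-99658622, plus strand), a forkhead factor that mESCs need for self-renewal and that primes enhancers in the epiblast, had 676 and 882 counts in WT and 514 and 872 counts in Haspin-KO, or 30.9 and 50.9 CPM against 35.8 and 61.1 CPM. Replicate 2 was the higher library in both groups, and the groups overlapped. Its log2 fold change was 0.25 (SE 0.26, 95% interval -0.33 to 0.83, adjusted p = 0.619). The value depended on single libraries, being -0.19 without Haspin-KO replicate 2, -0.08 without WT replicate 1, and 0.59 without Haspin-KO replicate 1.

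Zic2 (ENSMUSG00000061524, chr14:122475435-122479852, plus strand), a zinc-finger factor that takes part in the passage to the primed state and in forebrain development, had 730 and 918 counts in WT and 527 and 733 counts in Haspin-KO. These were 33.4 and 53.0 CPM in WT and 36.7 and 51.3 CPM in Haspin-KO, again with replicate 2 high and replicate 1 low in each group. The log2 fold change was 0.03 (SE 0.21, 95% interval -0.44 to 0.50, adjusted p = 0.95).

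Foxd3 and Zic2 shared this pattern. Replicate 2 exceeded replicate 1 by 0.72 in WT and 0.77 in Haspin-KO on the log2 CPM scale for Foxd3, and by 0.66 and 0.48 for Zic2. They were the only genes of the 10 in which replicate 2 was more than 1.25 times replicate 1 in both groups, a pattern met by 467 genes or 3% of those tested. The reverse pattern, met by 5.26% of genes tested, held for 0 of the 10. For both genes the gap between libraries of a group was larger than the gap between the group means, and no source used here says that libraries with the same number were prepared together.

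**Figure D3:**
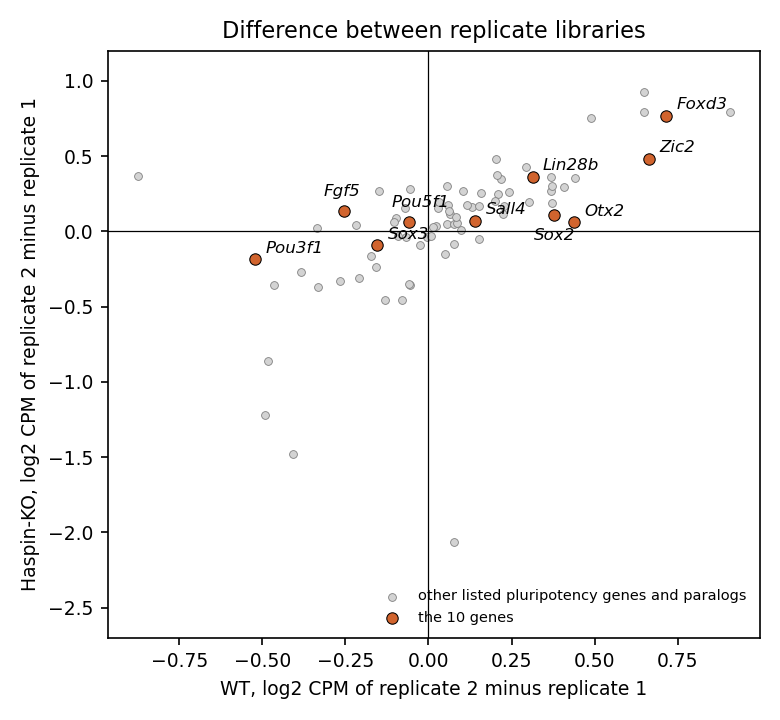
Log2 CPM (prior count 2) of replicate 2 minus replicate 1 in WT (x axis) and in Haspin-KO (y axis) for the 10 genes, named, and for the tested genes of the other pluripotency lists and the paralogs, in gray. Foxd3 (0.72 and 0.77) and Zic2 (0.66 and 0.48) lie in the upper right, and the other 8 genes lie closer to the axes.

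Sox3 (ENSMUSG00000045179, chrX:60891366-60893430, minus strand), a close relative of Sox2 that is known from the epiblast and neural progenitors, had 104 and 74 counts in WT and 102 and 95 counts in Haspin-KO, or 4.76 and 4.27 CPM against 7.10 and 6.65 CPM. Both Haspin-KO libraries were above both WT libraries, and the libraries of each group were close. The log2 fold change was 0.60 (SE 0.20, 95% interval 0.16 to 1.05, adjusted p = 0.132). In FPKM, Sox2 exceeded Sox3 by 63.7 and 92.6 times in WT and by 50.1 and 57.6 times in Haspin-KO.

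Lin28b (ENSMUSG00000063804, chr10:45376620-45486395, minus strand), an RNA-binding protein that blocks the maturation of let-7 microRNAs, had 318 and 314 counts in WT and 234 and 300 counts in Haspin-KO, or 14.6 and 18.1 CPM against 16.3 and 21.0 CPM. The groups overlapped, and its log2 fold change was 0.20 (SE 0.17, 95% interval -0.18 to 0.57, adjusted p = 0.534). Its paralog Lin28a, listed here among the genes shared by pluripotent states, exceeded it in FPKM by 26.6 and 33.7 times in WT and by 18.8 and 25.3 times in Haspin-KO.

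Fgf5, Zic2, Sox3 and Lin28b overlapped no other gene of the table. Pou5f1 shared 317 of its 2248 exonic bases and Pou3f1 330 of its 3849 with a gene on the opposite strand. Where exons were shared, the counts assigned to the overlapping gene were small beside those of Pou5f1, at most 1 for the antisense Gm19553, and of Sall4, at most 16 for the opposite-strand Gm14261. Otx2os1, which runs opposite to Otx2 and shares 154 exonic bases, had 1 and 2 counts in WT and 4 and 2 counts in Haspin-KO, beside 54 to 121 for Otx2. Gm49154 at Otx2, Gm2164 at Pou3f1 and the microRNA Gm23366 at Foxd3 had no counts. Sox2 lies within Sox2ot without shared exonic bases. Because no source used here gives the strand setting, reads of a gene and of its opposite partner cannot be told apart. The only stretch of at least 100 bases with at least 90% identity outside a gene's own locus was between Foxd3 and Foxd1, 315 bases at 90.48%, and Foxd1 had 200 and 250 counts in WT and 102 and 194 in Haspin-KO. Foxd3 counts are uncertain to the extent that reads were placed across this stretch.

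Of 16 other genes shared by pluripotent states all were tested and 1 rose, beside 2.5% of all genes called in either direction, namely Dppa2, an early-embryonic chromatin factor, with 2192 and 1708 counts in WT and 1995 and 1865 in Haspin-KO. Its libraries stood at 100.3 and 98.5 CPM in WT and at 138.9 and 130.6 CPM in Haspin-KO, which do not overlap (log2 fold change 0.44, SE 0.08, adjusted p = 0.0221). Without WT replicate 1 or WT replicate 2 its adjusted p was 0.101 or 0.109, and with limma 0.12. The median of this list was -0.01 on the log2 scale, and 8 of its fitted values were above 0 and 8 below. Nanog, the homeobox factor that acts with Oct4 and Sox2, had a log2 fold change of -0.10 (SE 0.09, adjusted p = 0.565).

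Among 21 other formative and primed genes 20 were tested and 0 passed an adjusted p of 0.05 in either direction by edgeR. With an unadjusted p under 0.05, 3 were higher and 1 was lower, beside 10.4% of all genes tested in each direction. Dnmt3b, a de novo DNA methyltransferase, had the smallest p, with 129.8 and 120.7 CPM in WT and 151.3 and 158.2 CPM in Haspin-KO (log2 fold change 0.30, SE 0.08, adjusted p = 0.0717). Otx1, the paralog of Otx2, had 16 and 6 counts in WT and 16 and 21 counts in Haspin-KO (log2 fold change 1.21, SE 0.47, adjusted p = 0.187), the opposite sign to Otx2. The median of the list was 0.15, with 14 fitted values above 0 and 6 below.

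The pathway of Lin28 and let-7 was represented by 13 genes, all tested, of which 0 passed an adjusted p of 0.05 by edgeR. Higher at an unadjusted p under 0.05 were 3 and lower 2, beside 10.4% of all genes tested in each direction. Tut4, a terminal uridylyl transferase that Lin28 recruits to precursor let-7, had 74.0 and 78.6 CPM in WT and 94.0 and 97.7 CPM in Haspin-KO (log2 fold change 0.33, SE 0.08, adjusted p = 0.066). Igf2bp1, an mRNA-binding protein whose transcript is a let-7 target, had a log2 fold change of 0.18 (SE 0.06, adjusted p = 0.155). Of 22 paralogs of the 10 genes 14 were tested and 0 passed by edgeR. An unadjusted p under 0.05 was met by 2 higher and 0 lower genes, beside the same 10.4% of all genes each way. Sall3, a relative of Sall4, had 36.9 and 40.0 CPM in WT and 43.0 and 48.6 CPM in Haspin-KO (log2 fold change 0.25, SE 0.10, adjusted p = 0.202).

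**Figure D4:**
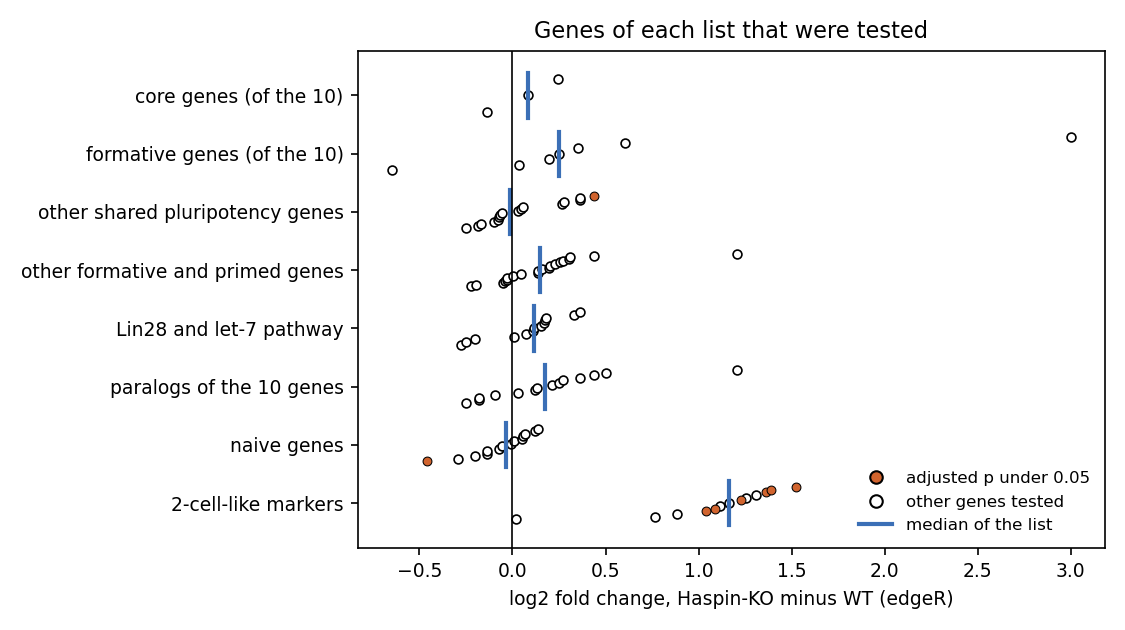
Log2 fold change between Haspin-KO and WT of every tested gene of 8 lists, with filled points for genes at an adjusted p under 0.05 by edgeR and vertical lines for list medians. The 10 genes hold no filled point, the other pluripotency lists hold 2 (Dppa2, higher, and Tcl1, lower), and the 2-cell-like markers hold 6.

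The genes whose pattern over the 4 libraries was most like that of Fgf5, the gene of the 10 with the smallest p, were sought by the Euclidean distance of log2 CPM (prior count 2) centred on each gene's mean. The nearest was Spink10 (distance 0.199), with 5 and 3 counts in WT and 19 and 20 counts in Haspin-KO. Eml6 (distance 0.309) had 52 and 27 counts in WT and 94 and 119 counts in Haspin-KO, and Cyyr1 (distance 0.327) had 11 and 7 against 25 and 25. All of them were high in both Haspin-KO libraries and low in both WT libraries, as the choice by likeness to Fgf5 fixes, and a distance over 4 libraries is a description only.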

How the data were processed

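RNA-seq libraries of WT (n = 2) and Haspin-KO (n = 2) E14 mESCs were grouped by their labels. The authors trimmed reads with Cutadapt (v1.9.1) and aligned those to the mm10 genome by HISAT2 (v2.0.1). HTSeq (v0.6.1) and DESeq2 are also named in the submitters' processing notes, and the strand setting and annotation release are not given in the sources used here. The authors deposited raw counts per gene and, in the same table, FPKM values, which equal counts per exonic length and library total within 0.006 in 100% of values.

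Counts were fitted over all 15580 genes that passed filterByExpr, with TMM scaling and edgeR's quasi-likelihood test (edgeR 4.0.16, R 4.3.3) without a block. The p-values were Benjamini-Hochberg adjusted over all of them. That test gives no SE, so the absolute log2 fold change over the square root of its F statistic was used. The 95% intervals are symmetric t intervals built from this SE. The scripts were tested on simulated data. Alternatives were DESeq2 (1.42.0), limma (3.58.1) on log2(FPKM + 0.1) for genes of at least 0.5 FPKM in at least 2 libraries, other scaling, filters and depth, GC content and length offsets, a replicate block, and leaving out each library. Replicates of a group were separate libraries, as their counts differed by more than sampling noise (chi-square per degree of freedom 6.99 in WT and 5.49 in Haspin-KO). Near copies were sought with blastn (2.17.0) among GENCODE M21 transcripts.

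The 10 genes and the gene lists were chosen with earlier results of these data known. Named were all 10 genes, Haspin, the genes of 4 lists that passed an adjusted p of 0.05 (up to 5 a list, otherwise the 2 with the smallest p), overlapping and near-identical genes, and the 3 genes nearest in pattern to the gene with the smallest p. Nanog, Lin28a and the naive, marker, primitive endoderm and germ layer genes named fall outside that rule and were chosen after their values were seen. Of the symbols listed for the Lin28 and let-7 pathway, Zcchc11 and Zcchc6 are older names of Tut4 and Tut7.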

Additional observations from a re-analysis of the deposited data

How the results depend on the processing

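With 2 libraries a group, 2 residual degrees of freedom and at most 10 counts of Fgf5 in a library, depth and replication limit what can be called. The DEG count was 129 and became 265 without the filter, 0 with limma and 60 to 266 with 1 library left out. Of the 10 genes, 1 (Fgf5, adjusted p = 0.0364) was called, also as a DEG, without the filter, which adds genes with few counts. Beside it, 4.09% of all genes fitted without the filter had an adjusted p under 0.05. With a library left out, the median log2 fold change of the 10 genes was -0.0188 to 0.34. That of the core factors was -0.10 to 0.29 (0.16 with GC content and length offsets). That of the formative and primed genes was -0.10 to 0.40 (0.39 with the offsets). Over all genes tested, log2 fold changes correlated with GC content at r = -0.216, and at r = -0.0165 after the offsets. Where a Haspin-KO library was left out, the medians that include Fgf5 were taken without it. The other shared pluripotency genes called were 3 without the filter, beside the same 4.09% of all genes, and 0 with limma, beside 0%. The other formative and primed genes called were 1 with the offsets, beside 1.48% of all genes tested. The sign changed for Pou5f1 with the offsets (0.0200, and 0.0190 with offsets and block), and with a library left out for Sox2 (-0.10 to 0.29), Foxd3 (-0.19 to 0.65), Zic2 (-0.27 to 0.40) and Lin28b (-0.0028 to 0.37). The causes were not tested. Fgf5 could not be fitted with a minimum of 10 counts, after thinning, with limma, or without either Haspin-KO library. In a fit that leaves 1 library in a group, that library is assumed to vary like the others. Without Haspin-KO replicate 1 a gene's variance also came almost wholly from the trend over all genes (1579 prior against 1 residual degree of freedom).

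The replicate numbers gave only 2 pairs, whose deviations correlated across genes (r = 0.289), and no source used here says that libraries with the same number were prepared together, so that pairing was not assumed. The replicate block leaves 1 residual degree of freedom, and its fit took the quasi-likelihood variance of every gene from the trend over all genes. A gene's own spread thus had no weight in these variances. With the block, 22.6% of all genes tested had an adjusted p under 0.05 (15.1% with the offsets added). The DEG count was 407 (344 with the offsets). Of the 10 genes 5 were called (Sall4, Otx2, Fgf5, Foxd3 and Sox3), and 6 with the offsets added (Sox2 as well). In each fit 1 of them was a DEG. The block called 8 other shared pluripotency genes (6 with the offsets), 5 other formative and primed genes (5) and 7 Lin28 and let-7 genes (7). The median of the core factors was 0.18 with block and offsets.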

Other observations

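Naive-state genes, which inhibition of MEK and GSK3 maintains, were measured beside the formative ones. All 14 were tested and 1 fell, beside 2.5% of all genes called in either direction, namely Tcl1, a co-activator of the kinase Akt, with 61.6 and 61.8 CPM in WT and 45.3 and 44.4 CPM in Haspin-KO (log2 fold change -0.46, SE 0.08, adjusted p = 0.0274, the quasi-likelihood test of edgeR, Benjamini-Hochberg adjusted over all genes tested). Without WT replicate 1 or WT replicate 2 its adjusted p was 0.119, and with offsets for GC content and gene length 0.0818. Klf4, a Krüppel-like factor of the naive network, had 246.7 and 256.7 CPM in WT and 201.9 and 208.4 CPM in Haspin-KO (log2 fold change -0.29, SE 0.07, adjusted p = 0.0604, 0.0341 by DESeq2, 0.00732 without the filter, 0.291 with the offsets, 0.127 with limma and 0.062 to 0.197 with 1 library left out). The median of the list was -0.03 on the log2 scale.

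Of 14 germ layer genes 11 were tested and 0 passed by edgeR. An unadjusted p under 0.05 was met by 1 higher and 1 lower gene, beside 10.4% of all genes tested in each direction. T (Brachyury), a mesoderm gene, had the lowest fitted log2 fold change, -0.81 (adjusted p = 0.123). Of 9 primitive endoderm markers 7 were tested and 1 rose, the collagen gene Col4a1 (log2 fold change 0.40, adjusted p = 0.0359, and 0.161 or 0.138 without WT replicate 1 or 2). Beside this call, 2.5% of all genes tested had an adjusted p under 0.05 in either direction. Gata4 and Gata6, the defining transcription factors of the primitive endoderm, had log2 fold changes of -0.49 (adjusted p = 0.388) and 0.25 (adjusted p = 0.814).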
